A study of Sus scrofa with 8 samples.

Results

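BIRC7, an inhibitor of apoptosis, and 5 further regulators of programmed cell death (BCL2L1, BAX, CASP8, FAS and FASLG) were followed in boar testis, with the question whether BIRC7 stood alone among them between the diets. Probes were taken as members where the accession of the array design matched the gene in the pig RefSeq table, or where the authors' annotated list of probes that differed between the diets named the gene. Of the 6 genes, 5 had a probe and BAX was dropped, among 2228 genes that could be named on the array. The 5 genes had 6 probes, of 43603 probes on the array and 36982 that were present. The BIRC7 probe was chosen by its diet difference in these same 8 boars, so its diet values are given below as a description and without a test. The other 5 probes were matched to their genes by accession, not by their values, though the genes were chosen with earlier results of these data known.

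The 8 Large White boars were allotted to the diets at random within litters, and 1 array with a single dye was hybridized per boar. Boars m_9597, m_9599, m_9499 and m_9527 ate a feed enriched in methionine, choline, betaine, folate and vitamins B6 and B12 from month 1 to month 10 of age. Boars m_9598, m_9600, m_9502 and m_9528 ate the control feed over the same months. Neither group carried a transgene or another treatment, and each array measured testis tissue, in which fewer cells of a type and less RNA per cell cannot be told apart. The protamine probes PRM1 and PRM2 and the acrosin probe ACR, which mark spermatids, were detected in all 8 boars. Slide 1 held 1 litter of 4 full brothers (m_9597, m_9598, m_9599 and m_9600) and slide 2 the other 4 boars, each with 2 boars per diet. The boars came from 3 litters, so that slide 2 held more than 1 litter, and how its boars divide among them is not given in the sources used here. The litter of slide 1 and the slide cannot be told apart. The supplemented diet took places 1 and 3 and the control diet places 2 and 4 on both slides, and these places cannot be told apart from the diets either.

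The median spot signal lay between 108 and 192.5 over the 8 arrays, which was 4.91 to 7.40 times the local background. The arrays of boars m_9527 and m_9528, one on each diet, stood somewhat apart: their mean correlations with the other arrays were 0.972 and 0.971, against 0.980 to 0.987 for the other 6. All values below are log2 signals after quantile normalization without background subtraction, which understates the change of dim probes, and differences are supplemented minus control diet. All 6 member probes rose well above background in all 8 boars and no spot was saturated. Their levels are not compared with one another, since probes differ in brightness.

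Apoptosis is started along either of 2 arms. At the cell surface, a ligand such as FASLG binds its receptor FAS, the adaptor FADD is drawn to it, and the initiator caspase CASP8 is activated. At the mitochondrion, pore-forming BCL2 proteins such as BAX release cytochrome c, and anti-apoptotic relatives such as BCL2L1 (BCL-XL) hold them back. Inhibitor of apoptosis proteins, the family to which BIRC7 (livin) belongs, act further down by binding caspases or the antagonist of XIAP, DIABLO. In the testis, germ cells die by apoptosis in large numbers during normal spermatogenesis, and FASLG and FAS have long been studied there in Sertoli and germ cells. FASLG is also made by activated T and NK cells.

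The name BIRC7 rests on 1 probe, A_72_P416738, which the array design assigns to the expressed sequence contig TC397472 and not to a RefSeq transcript. Its sequence is shown because the largest diet difference among the apoptosis genes rests on these 60 bases, with the hexamer AATAAA, the usual polyadenylation signal, in capitals.

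BIRC7 probe A_72_P416738: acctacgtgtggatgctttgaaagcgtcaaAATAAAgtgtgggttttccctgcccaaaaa

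The hexamer AATAAA was searched on both strands and occurred once, at positions 31 to 36 counted from the 5′ end, and 0 times on the other strand. Among the 480 probes of the authors' list, 16.3% held it as printed and 19.8% on either strand. The BIRC7 probe was 43.3% G and C, against a median of 38.3% over those 480 probes.

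Expression of BIRC7 was higher in every supplemented boar than in every control boar. The log2 signal was 10.25 in boar m_9597, 10.08 in m_9599, 10.19 in m_9499 and 10.95 in m_9527 on the supplemented diet, and 9.05 in m_9598, 9.09 in m_9600, 9.87 in m_9502 and 9.37 in m_9528 on the control diet. The lowest supplemented boar (m_9599) lay 0.20 above the highest control boar (m_9502), and the highest value of all came from boar m_9527. Group means were 10.36 ± 0.39 and 9.35 ± 0.38 (SD, n = 4), a difference of 1.02 (SE 0.25) or 2.03-fold. The signals before normalization did not overlap between the diets either, at 1034 to 1357.5 against 531 to 757, which was 21.2 to 76.1 times the local background. Of all present probes, 1.13% had diets without overlap, and 99 present probes (0.268%) had a larger rise than BIRC7. The probe entered because of this contrast, so its place in these counts is no finding. The difference was 0.83 without boar m_9527 and 1.19 without boar m_9502, the extremes over all alternatives tried.

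**Figure D1:**
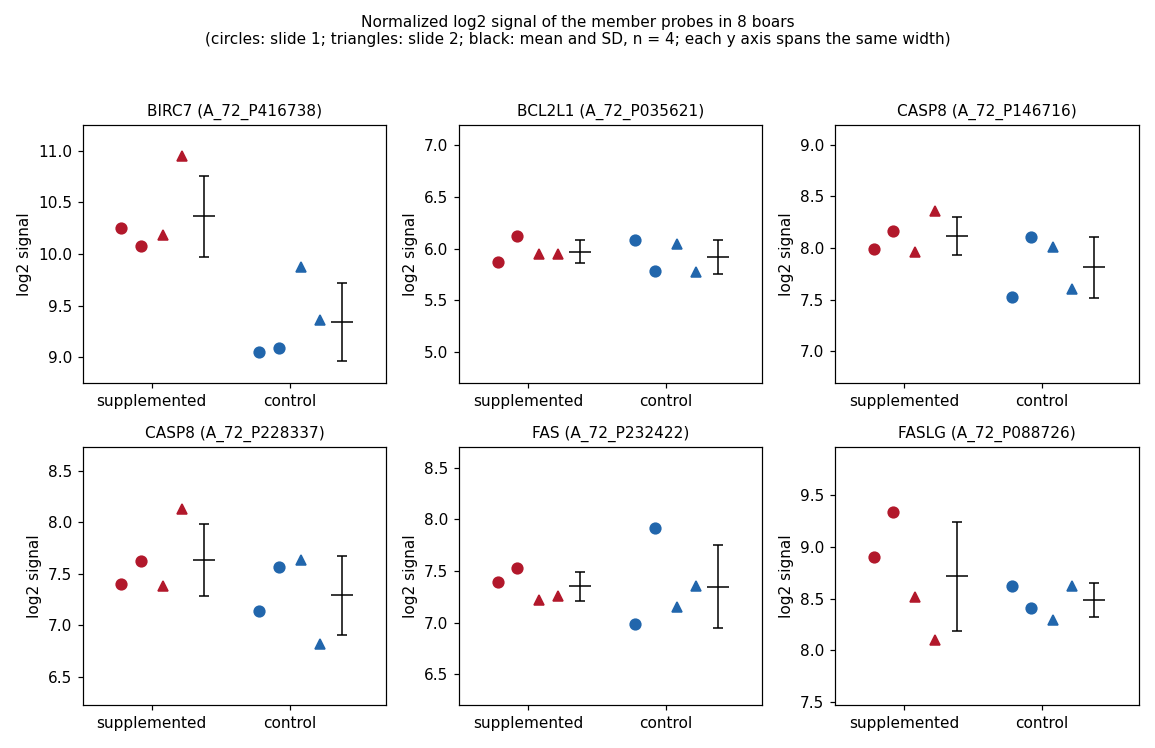
Normalized log2 signal of the 6 member probes (y axis, same width in each panel) in the 4 supplemented boars (red) and the 4 control boars (blue). Circles are boars of slide 1, triangles boars of slide 2, and the black bars give mean and SD. The diets overlap in every panel but that of BIRC7, whose supplemented boars lie between 10.08 and 10.95 and control boars between 9.05 and 9.87. BIRC7 was chosen by its diet difference in these boars, and only 1.13% of all present probes had diets without overlap.

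Of the 5 other member probes, 0 had P under 0.05 between the diets and 0 passed after Benjamini-Hochberg adjustment (limma), against 1.86% of all present probes with P under 0.05 and 0% after adjustment. Their differences were 0.00 to 0.34, all 5 higher on the supplemented diet, where 49.5% of all present probes were higher. The diets overlapped in all 5. Only 1.13% of all present probes had diets without overlap, so this overlap does not set the 5 probes apart. The 95% intervals of these differences all included 0, and they give the sizes that 4 boars per diet left possible.

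CASP8, the initiator caspase of the receptor arm, had 2 probes matched to the same transcript (NM_001031779). On the first, A_72_P146716, boars m_9597, m_9599, m_9499 and m_9527 had log2 signals of 7.99, 8.16, 7.96 and 8.36, and boars m_9598, m_9600, m_9502 and m_9528 had 7.52, 8.11, 8.01 and 7.60. The control boars m_9598 and m_9528 were low and the other 2 control boars lay among the supplemented ones. The difference was 0.31 (SE 0.18, 95% interval -0.10 to 0.71), 1.24-fold, with an adjusted P of 0.840. On the second probe, A_72_P228337, the supplemented boars had 7.40, 7.63, 7.38 and 8.13 and the control boars 7.15, 7.57, 7.63 and 6.82, in the same order of boars. Boar m_9527 was again the highest, m_9528 was the lowest, and the groups overlapped. Here the difference was 0.34 (SE 0.24, 95% interval -0.19 to 0.87), 1.27-fold, with an adjusted P of 0.840. It was 0.18 without boar m_9527, 0.19 without boar m_9528 and 0.46 without boar m_9502. The signals were 4.93 to 11.7 times the local background over both probes.

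The 2 CASP8 probes moved together over the 8 boars. Pearson's r was 0.921 and Spearman's rho 0.905, with exact two-sided permutation P of 0.00149 and 0.00456, or 0.0223 and 0.0685 after Benjamini-Hochberg adjustment over the 15 pairs of member probes. The permutation shuffled all 8 boars freely, although 4 of them were full brothers on 1 slide. Both probes match the same transcript, so r describes how well they agree and is no separate biological finding. Without the 2 boars farthest from the median, r was 0.938, and within the slides it was 0.979 and 0.992 over 4 boars each. No other pair had an adjusted P under 0.05. BIRC7 and the first CASP8 probe had r = 0.713, given as a description because BIRC7 was chosen on its diet difference in these boars. It was 0.498 with the diet means removed, and 0.264 without the 2 boars farthest from the median.

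FAS, the death receptor that FASLG engages, had practically equal means on both diets. Its probe A_72_P232422 (NM_213839) had log2 signals of 7.40, 7.53, 7.22 and 7.26 in boars m_9597, m_9599, m_9499 and m_9527, and of 6.98, 7.91, 7.15 and 7.35 in boars m_9598, m_9600, m_9502 and m_9528. The highest and the lowest boar were both controls and both brothers of slide 1, so that the supplemented range lay inside the control range. Means were 7.35 ± 0.14 and 7.35 ± 0.41 (SD, n = 4), and the 95% interval of the difference was -0.46 to 0.47, with an adjusted P of 0.997. The sign of so small a difference changed with the settings.

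FASLG, the ligand, had an SD of 0.53 among the supplemented and of 0.16 among the control boars. Its probe A_72_P088726 (NM_213806) read 8.91, 9.34, 8.52 and 8.10 in boars m_9597, m_9599, m_9499 and m_9527, and 8.62, 8.41, 8.30 and 8.62 in boars m_9598, m_9600, m_9502 and m_9528. Both supplemented brothers of slide 1 lay above all other boars, while boar m_9527 was the lowest of all 8. The difference was 0.23 (SE 0.25, 95% interval -0.33 to 0.79), 1.17-fold, with an adjusted P of 0.844. It was 0.02 without boar m_9599 and 0.43 without boar m_9527. Markers of T and NK cells, which also make FASLG, were present for 6 of 11 genes by 8 probes, 3 of them higher on the supplemented diet, with a median difference of -0.04 and 0 with P under 0.05. The mean of these probes, relative to its mean over the boars, ran from -0.17 to 0.08 on the supplemented and from -0.10 to 0.23 on the control diet. The CD3D probes were above the presence limit on 1 and 0 arrays and the CD2 probe on 1 array. Those of CD3G were on 4 and 3 arrays and still entered the mean. The CD8A probe was on 7 arrays and the CD4 probes on 8 and 0, whereas CD3E, CD247 and GZMB were on all 8. The part of such cells in the FASLG values was not tested.

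BCL2L1, the mitochondrial guard against apoptosis, hardly varied. The probe A_72_P035621 (NM_214285) had 5.87, 6.12, 5.95 and 5.95 in boars m_9597, m_9599, m_9499 and m_9527, and 6.08, 5.79, 6.04 and 5.77 in boars m_9598, m_9600, m_9502 and m_9528. All 8 boars lay within 0.35 of each other and the diets were fully interleaved. The difference was 0.05 (SE 0.14, 95% interval -0.27 to 0.37), 1.04-fold, with an adjusted P of 0.931. This was the dimmest of the member probes, at 1.92 to 3.56 times the local background, where a change is most understated. Its residual SD of 0.139 was among the small ones, since only 8.15% of the present probes had a smaller one, against 68.8% for BIRC7 and 69.8% for FASLG. CASP8 had residual SDs of 0.244 and 0.364, with 36.1% and 64.8% of the present probes having a smaller one. FAS had 0.303, near the median of 0.296 over all present probes.

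Each slide held 2 boars of each diet, and the diet difference was split into its values within the slides. For BIRC7, where both are parts of the contrast that chose the probe and no replication of it, it was 1.09 among the brothers of slide 1 and 0.95 among the boars of slide 2. The CASP8 probes differed by 0.26 and 0.16 on slide 1 and by 0.35 and 0.53 on slide 2. BCL2L1 had 0.06 and 0.04, and FAS 0.01 and -0.01. Only FASLG had clearly opposite signs, with 0.61 on slide 1 and -0.15 on slide 2. On slide 1 both supplemented brothers lay above both control brothers, and on slide 2 the diets overlapped. The interaction of diet and slide was -0.76 for FASLG (SE 0.37, adjusted P 0.99996 in limma). After adjustment 0 of the 6 member probes and 0% of the present probes passed for the interaction, so a difference between the slides in the response to the diet was not shown for any member.

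**Figure D2:**
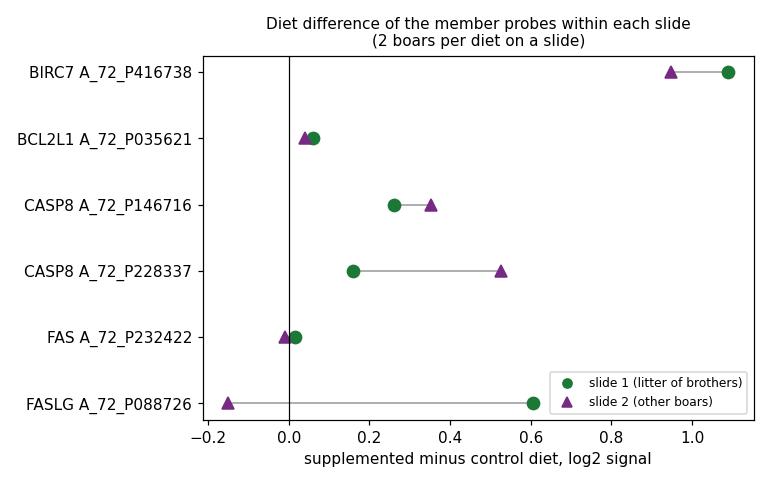
Diet difference of each member probe (x axis, supplemented minus control, log2 signal) among the 4 brothers of slide 1 (circles) and the 4 boars of slide 2 (triangles), each from 2 boars per diet. BIRC7 lies at 1.09 and 0.95, while FASLG spans from 0.61 to -0.15.

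Apart from the diet, the boars of the slides were compared in a model with diet and slide. BIRC7 was 10.09 ± 0.66 on slide 2 and 9.62 ± 0.63 on slide 1 (SD, n = 4), a difference of 0.48 (SE 0.20, 95% interval 0.02 to 0.94) with an adjusted P of 0.611 in limma. FASLG ran the other way, with 8.38 ± 0.24 on slide 2 and 8.82 ± 0.40 on slide 1, a difference of -0.43 (SE 0.22, 95% interval -0.93 to 0.06, adjusted P 0.633). The T and NK cell mean was also lower on slide 2, at -0.17 to 0.04 against -0.04 to 0.23, and its part in the FASLG difference was not tested. The FASLG difference was -0.27 without boar m_9599 and also without boar m_9527. For FAS the difference was -0.21 (adjusted P 0.760), but -0.026 without boar m_9600 and -0.40 without boar m_9598, and for BCL2L1 and the CASP8 probes it was -0.04, 0.04 and 0.06. So 1 of 6 member probes, BIRC7, had P under 0.05 and 0 passed the adjustment, beside 8.11% and 0% of the present probes. The BIRC7 value rests on a model that removes the diet difference by which the probe was chosen. Its unadjusted P was no longer under 0.05 in 10 of 18 alternatives, among them the model without the diet and the removal of 6 of the 8 boars in turn, so that no slide difference of BIRC7 is claimed. The slides overlapped for all 6 members, and did not overlap for 6.18% of the present probes.

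The wider apoptosis pathway was given by lists of 68 genes, of which 23 had a probe, with 30 present probes in all. Leaving BIRC7 aside, 0 of 29 probes had P under 0.05 between the diets in either direction and the diets overlapped in all 29, beside 1.86% and 1.13% of all present probes, and a count of 0 among 29 is near those shares. With 1 boar left out, the difference of 28 of the 29 changed its sign or moved by over 1.5 times. The supplemented mean was the higher one for 18 and the lower one for 11, with a median difference of 0.13 and a range from -0.64 to 0.54. Over all present probes 49.5% were higher, the median difference was -0.0028 and the median size of a difference was 0.17.

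In the death receptor arm, 12 of 14 probes from 9 of 15 genes were higher on the supplemented diet, with a median of 0.21, and 0 had P under 0.05. CASP10, the close relative of CASP8, gave both extremes of this list. Its probe A_72_P196687 had 0.49 (SE 0.39), with 0.22 without boar m_9527 and 0.80 without boar m_9502. Its probe A_72_P133996 had -0.07 (SE 0.15). That probe was the brightest of the list, at log2 signals of 17.29 to 17.69, with boars m_9527 and m_9528 at the same value. The receptor TNFRSF1A, which binds TNF, had 0.37 (SE 0.26), with 0.18 without boar m_9527 and 0.51 without boar m_9600. The adaptor FADD had 0.13 (SE 0.17), with 0.0050 without boar m_9528 and 0.22 without boar m_9600. These were the same boars throughout, so the 14 probes are not independent. Markers of macrophages, which also express TNF and its receptors, were present for 3 of 6 genes by 6 probes. All 6 were higher on the supplemented diet, with a median of 0.34 and 0 with P under 0.05. The macrophage mean ran from -0.06 to 0.57 on the supplemented and from -0.50 to 0.69 on the control diet, and its part in the receptor arm was not tested.

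For the other inhibitors of apoptosis no probe passed the test between the diets. XIAP, which inhibits caspases directly, had -0.22 (SE 0.19, adjusted P 0.840 in limma) on probe A_72_P146916 and 0.13 (SE 0.17) on probe A_72_P373273. BIRC5 (survivin), which also serves chromosome segregation, had 0.21 (SE 0.19, adjusted P 0.840 in limma). Of the 11 genes of this list 3 had a probe.

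Pro-apoptotic BCL2 proteins were represented by 3 of 11 genes. BCL2L11 (BIM), which binds and blocks the anti-apoptotic members, had the largest rise of the other 29 probes, 0.54 (SE 0.47, adjusted P 0.840 in limma). It rested on boar m_9499, whose log2 signal was 7.70 while the other 7 boars lay between 5.32 and 5.52, and without this boar the difference was -0.04. The signal of those 7 boars was dim, where a change is understated. BID, which CASP8 cleaves to connect the arms, had -0.28 (SE 0.28), with -0.05 without boar m_9527 and -0.44 without boar m_9502. PMAIP1 (NOXA), which sensitizes cells to apoptosis, had -0.17 (SE 0.16).

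All 3 probes of the mitochondrial list were lower on the supplemented diet, with a median of -0.55 and 0 with P under 0.05. They measured 2 of 6 genes, both porins of the outer membrane. VDAC2, which holds the BAX relative BAK in check, gave the largest fall of all lists, -0.64 (SE 0.44, adjusted P 0.840 in limma) on probe A_72_P431284. Its other probe, A_72_P223492, had -0.55 (SE 0.34). Boar m_9527 was the lowest and boar m_9528 the highest of all 8 on both. Without m_9527 the differences were -0.30 on each. Without boar m_9502 they were larger, -0.98 on probe A_72_P431284 and -0.81 on probe A_72_P223492. VDAC1 had -0.25 (SE 0.20).

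Of a list of 7 stress response genes, 3 had a probe. GADD45A, which is induced by DNA damage, had -0.61 (SE 0.33, adjusted P 0.840 in limma). It was -0.35 without boar m_9528 and -0.84 without boar m_9502. The ubiquitin ligase MDM2 had -0.29 (SE 0.18). Among the other caspases CASP1, which processes interleukins, had 0.21 (SE 0.23).

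**Figure D3:**
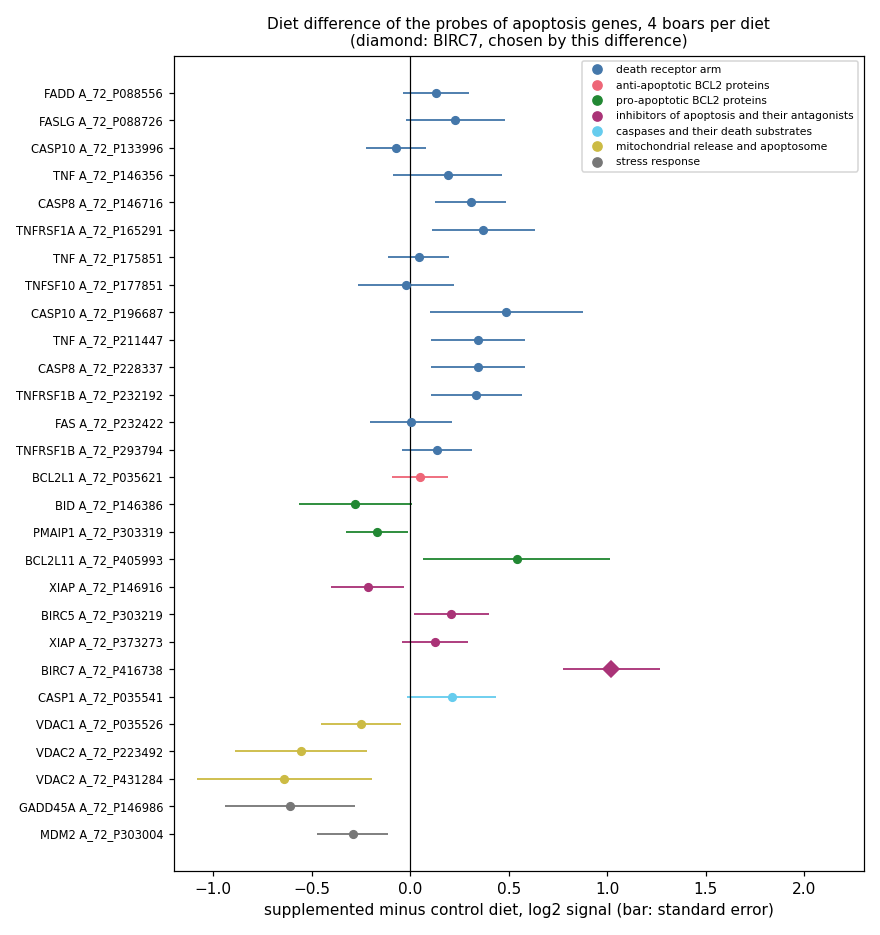
Diet difference (x axis, supplemented minus control, log2 signal) of 28 of the 30 present probes of apoptosis genes with their standard errors, coloured by list, from 4 boars per diet. BIRC7, the diamond at 1.02, was chosen by this difference, and the other 27 probes drawn lie between -0.64 and 0.54.

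Between the slides, 4 of these 30 probes had P under 0.05 and 0 passed the adjustment, beside 8.11% and 0% of all present probes. They included BIRC7 and 2 probes of TNF. The cytokine TNF was higher on slide 2 by 0.70 (SE 0.16, adjusted P 0.4998 in limma) on probe A_72_P146356, with every boar of slide 2 (8.61 to 9.20) above every brother of slide 1 (8.16 to 8.48), as was the case in one direction or the other for 6.18% of all present probes. Its probe A_72_P211447 had 0.54 (SE 0.17), while its remaining probe, A_72_P175851, had 0.16 (SE 0.15). This last probe was dim, at log2 signals of 4.98 to 5.53, where a change is understated. TNF was named after its values were seen.

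The named probes whose pattern over the 8 boars was most like that of BIRC7 were ranked by Pearson's r among 2917 probes, as a description. Highest were FAM18A (0.966), SPEF2 (0.957), which is needed for the sperm flagellum, HPS5 (0.951), OSCP1 (0.946) and KCNJ12 (0.945), a potassium channel. The lowest were IL13RA2 (-0.966), a decoy receptor of interleukin 13, FBXO33 (-0.956), FNDC3B (-0.956), STAG1 (-0.953), a cohesin subunit, and ATAD1 (-0.952). All 10 came from the authors' list, which was selected on the same diet contrast as BIRC7, so that a shared diet difference is built in. With the diet means removed from both, r was 0.801 to 0.926 for the first 5 and -0.931 to -0.854 for the last 5. These 10 were picked for their r over the same boars, so these values too are partly built in and no separate support. Their diet differences were 0.16 to 0.66 and -0.80 to -0.24, all smaller in size than that of BIRC7. None of them is in the apoptosis lists.

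**Figure D4:**
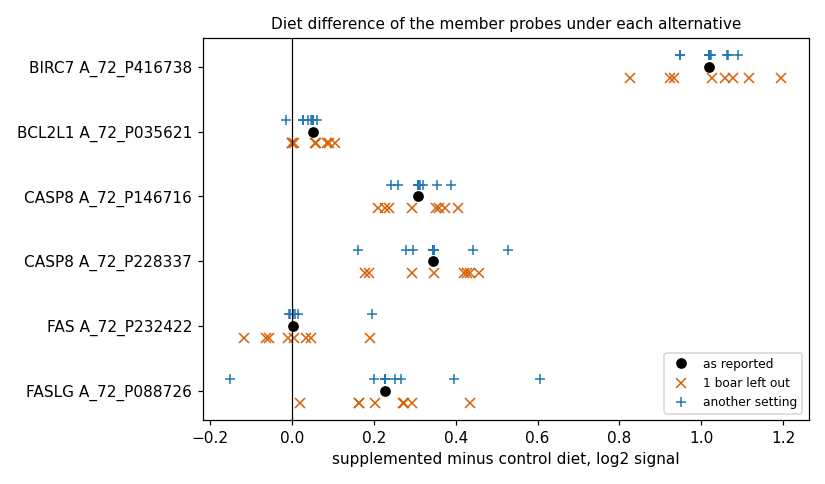
Diet difference of each member probe (x axis, supplemented minus control, log2 signal) as reported (black), with 1 boar left out (crosses) and under another signal column, normalization, filter, model or slide (plus signs). BIRC7, chosen by this difference, lies between 0.83 and 1.19. FAS, BCL2L1 and FASLG lie on both sides of 0, FASLG with -0.15 on slide 2 alone and 0.61 on slide 1 alone.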

How the data were processed

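Testis RNA of 8 boars was measured on one-colour Agilent arrays. The authors deposited scanner output, per the file headers from Feature Extraction 10.5.1.1, with the spot intensity and quality flags, and a table of log2 values, which matched quantile-normalized log2 gMedianSignal (r = 0.999998 on every array). Here control spots were dropped, log2 gMedianSignal was quantile-normalized with no background subtracted, and the spots of a probe were averaged. A probe was present if its signal was above 25 and well above background in 2 or more of the 4 boars of a diet. Diets and slides were compared with limma 3.58.1 (R 4.3.3) by two-sided tests, and P-values were adjusted by Benjamini-Hochberg over 36982 present probes. The code was tested on simulated data. Plots came from matplotlib 3.10.9 (Python 3.11.15). The number of arrays limits the precision.

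Accessions were named through the RefSeq table of Sscrofa11.1, used for names only. The deposited names and the authors' annotation gave 2918 named present probes. The members, the apoptosis lists and the marker lists were chosen with earlier results of these data known. Named were all member probes, the largest and smallest difference of each list, list probes with P under 0.05 between the diets, list probes with adjusted P under 0.05 between the slides, and the 5 highest and 5 lowest correlations with BIRC7. Other list probes were named after their values were seen. Alternatives were gProcessedSignal, normexp with an offset of 50, scaling to the 75th percentile, other filters, variance models, array weights, the slide as a block, each slide alone, the log2 table as deposited and the removal of each boar in turn. The diet-by-slide interaction and the correlations after the diet means were removed were added after seeing the data. The boars are separate animals. The values of 2 genes of the apoptosis lists are not reported here, though their probes are in the counts.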

Additional observations from a re-analysis of the deposited data

Results flagged for a closer look

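Each of the 30 apoptosis probes was checked for a boar far from the other 3 of its diet, by Dixon's criterion, a check widened from the member probes after the values were seen. Of the 60 groups 7 held such a boar, where chance gives about 3 (1 in 20), and 0 of these 7 were groups of a member probe. The groups share the same boars and are not independent, so 7 beside 3 is no test of an excess.

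Boar m_9527 was the low one in 4 supplemented groups. It had 9.44 for BID (others 10.30 to 10.42), 9.10 for GADD45A (others 10.03 to 10.11), and 14.40 and 11.32 for the VDAC2 probes A_72_P223492 and A_72_P431284 (others 15.34 to 15.48 and 12.62 to 12.74). The same boar had the highest BIRC7 value and the lowest Leydig cell marker mean, -1.01 against -0.35 to 0.91 in the other boars. The part of this array in the diet differences was measured only by leaving it out, which left BIRC7 at 0.83.

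On the control diet, boar m_9502 was low for the XIAP probe A_72_P146916, at 6.37 against 6.97 to 7.05, and boar m_9528 was low for the TNFRSF1B probe A_72_P232192, at 5.10 against 5.97 to 6.09. Boar m_9499 was high for BCL2L11, at 7.70 against 5.32 to 5.51 in the other supplemented boars.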

How the results depend on the processing

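The BIRC7 difference ran from 0.83 to 1.19 under the 21 alternatives for the diets, which is no support for it, since the probe was chosen by this difference. Filters and variance models cannot move its estimate. Its diets did not overlap, so leaving out 1 boar could not turn its sign. The 5 other member probes had 0 with P under 0.05 under all alternatives but array weights (1, the CASP8 probe A_72_P146716, at 0.39 with adjusted P 0.287 in limma) and slide 1 alone (1, FASLG, at 0.61 with adjusted P 0.752 in limma), with 0 whenever 1 boar was left out. Differences near 0 turned their sign: BCL2L1 was -0.014 with array weights and -0.00019 to 0.10 with 1 boar left out, and FAS was -0.0039 with normexp, -0.0080 on slide 2 alone and -0.12 to 0.19 with 1 boar left out. FASLG was -0.15 on slide 2 alone.

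The number of present probes with P under 0.05 between the diets, 689 as reported, was 5830 with array weights, 2381 on slide 1 alone, 359 on slide 2 alone and 339 to 6155 with 1 boar left out (369 without m_9598, 1213 without m_9600, 6155 without m_9502, 438 without m_9527 and 339 without m_9528). For the slides, the number with adjusted P under 0.05, 0 as reported in limma with 2999 at an unadjusted P under 0.05, was 2 with gProcessedSignal and 3 with gMedianSignal (each set to the 75th percentile of its array), 2 after weighting the arrays, 1 without the diet as a term and 0 to 9 with 1 boar left out (1 without m_9499, 2 without m_9598 and 9 without m_9528). No member probe was among them under any of the 18 alternatives. The slide difference of BCL2L1 was 0.11 with gProcessedSignal, 0.16 with gMedianSignal, each scaled to the 75th percentile, and -0.098 to 0.021 with 1 boar left out. That of CASP8 was -0.066 to 0.167 on probe A_72_P146716 and -0.128 to 0.256 on probe A_72_P228337, that of FAS -0.40 to -0.026 and that of FASLG -0.58 to -0.27. The causes were not tested. No paired analysis was possible because the labels give no pairs of boars across the diets. Depth has no counterpart here, and the dim BCL2L1 probe, at most 3.56 times the local background, limits what can be said of that gene.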

Other observations

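Several other named probes followed BIRC7 closely once the diet means were removed, a ranking added after the values were seen. The nearest were ACSL4, which activates arachidonic acid for lipid synthesis (r = 0.990 over the 8 boars), CLTC, the clathrin heavy chain (0.978), and FABP6, a bile acid binding protein (0.968). The farthest were RPSA, a ribosomal protein (-0.986), TNFSF4, the OX40 ligand (-0.985), and TBK1, a kinase of innate immunity (-0.980). None of these 6 probes came from the authors' list. They are the extremes of 2917 probes over 8 boars, and correlations of this size are given as values only.

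Among the member probes, r with BIRC7 after the diet means were removed was 0.498 and 0.596 for the CASP8 probes, 0.02 for BCL2L1, -0.71 for FASLG and -0.33 for FAS. Markers of duct epithelium were given by 5 probes of 2 genes. All 5 were lower on the supplemented diet, with a median difference of -0.95 and 0 with P under 0.05. The EPCAM probes had -0.95, -1.19 and -1.15, but the CDH1 probes only -0.18 and -0.15, the latter detected on 2 arrays. The mean of these probes overlapped between the diets, at -1.17 to 0.58 on the supplemented and -0.63 to 0.96 on the control diet. Leydig cell markers were lower in all 11 probes, from 6 of 7 genes, with a median of -0.35 and 0 with P under 0.05. The INSL3 probe had only -0.03. The highest and the lowest boar by the Leydig mean were both supplemented, m_9499 at 0.91 and m_9527 at -1.01. Control boars lay between them, at -0.12 to 0.31. Sertoli cell markers had a median of 0.06 over 9 probes and spermatid markers of -0.05 over 4.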
